A study of Homo sapiens with 50 samples.

Results

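ANGPTL4 and the genes of the lipase system it belongs to were followed in HepaRG, a line of human liver origin that, once differentiated, forms both hepatocyte-like and biliary-like cells. The members are 5 of the 56567 named genes in the deposited table, chosen by gene symbol, namely ANGPTL4, ANGPTL8, LPL, LIPC and LIPG, and the transcripts of each were summed per library. From day 8 to day 14 of culture the cells received mesotrione, isoxaflutole or quizalofop-p-ethyl, herbicide active ingredients, at 0.1 uM, 10 uM or 1 mM. The control group has a labelled concentration of 0. All 10 groups shared the test medium with 2% fetal bovine serum and 1% DMSO, and each held 5 libraries, 50 in all.

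LPL, lipoprotein lipase, splits the triglycerides of circulating lipoproteins at the capillary wall. LIPC, hepatic lipase, acts on lipoprotein remnants and high-density lipoprotein in the liver, and LIPG, endothelial lipase, acts mainly on the phospholipids of high-density lipoprotein. ANGPTL4 is a secreted protein that inactivates LPL and is a well known target of the PPAR family of lipid-sensing receptors, while ANGPTL8, made in liver and fat, takes part in the inhibition of LPL after feeding.

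Levels are in FPKM, read fragments scaled by transcript length and library total, a scale per length that allows levels of different genes to be set side by side. Differences are of log2(FPKM + 1), so that changes of genes near 0 come out too small, and they come from limma over 24222 genes and loci with Benjamini-Hochberg adjustment and a threshold of 0.05. In the group given 10 uM quizalofop-p-ethyl, replicate 5 was left out, because only 6782 genes reached 1 FPKM there, against 16996 to 20321 in the other 49 libraries. Its estimated depth was 3980000 fragments, against 6920000 to 33100000 in the others. Whether the 5 libraries of a group were separate cultures is not in the labels. The p-values therefore measure only how far these libraries spread, which may be technical.

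At 1 mM, 4 of the 5 genes passed the threshold with quizalofop-p-ethyl, ANGPTL4 and LPL higher than control and LIPC and ANGPTL8 lower. That is to be read against 32.7% of all genes called in that comparison, 13% higher and 19.8% lower. Higher genes made up 39.6% of these calls, or 50.2% with median-ratio scaling. With isoxaflutole only ANGPTL4 passed, where 2.42% of all genes were called and 1.16% were higher, and with mesotrione none of the 5 did, where 0.879% were called. At 0.1 uM and 10 uM no member passed in any of 30 tests by limma, in comparisons that called 0.0% of all genes, or 0.00826% for quizalofop-p-ethyl at 10 uM. Their log2 differences there ran from -0.27 to 0.41, and the adjusted p from 0.96 to 1.0. An unadjusted p under 0.05 was reached by 1 of those 30 tests, LPL with quizalofop-p-ethyl at 10 uM, and by 2 of the 5 with mesotrione at 1 mM, ANGPTL4 and ANGPTL8.

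**Figure D1:**
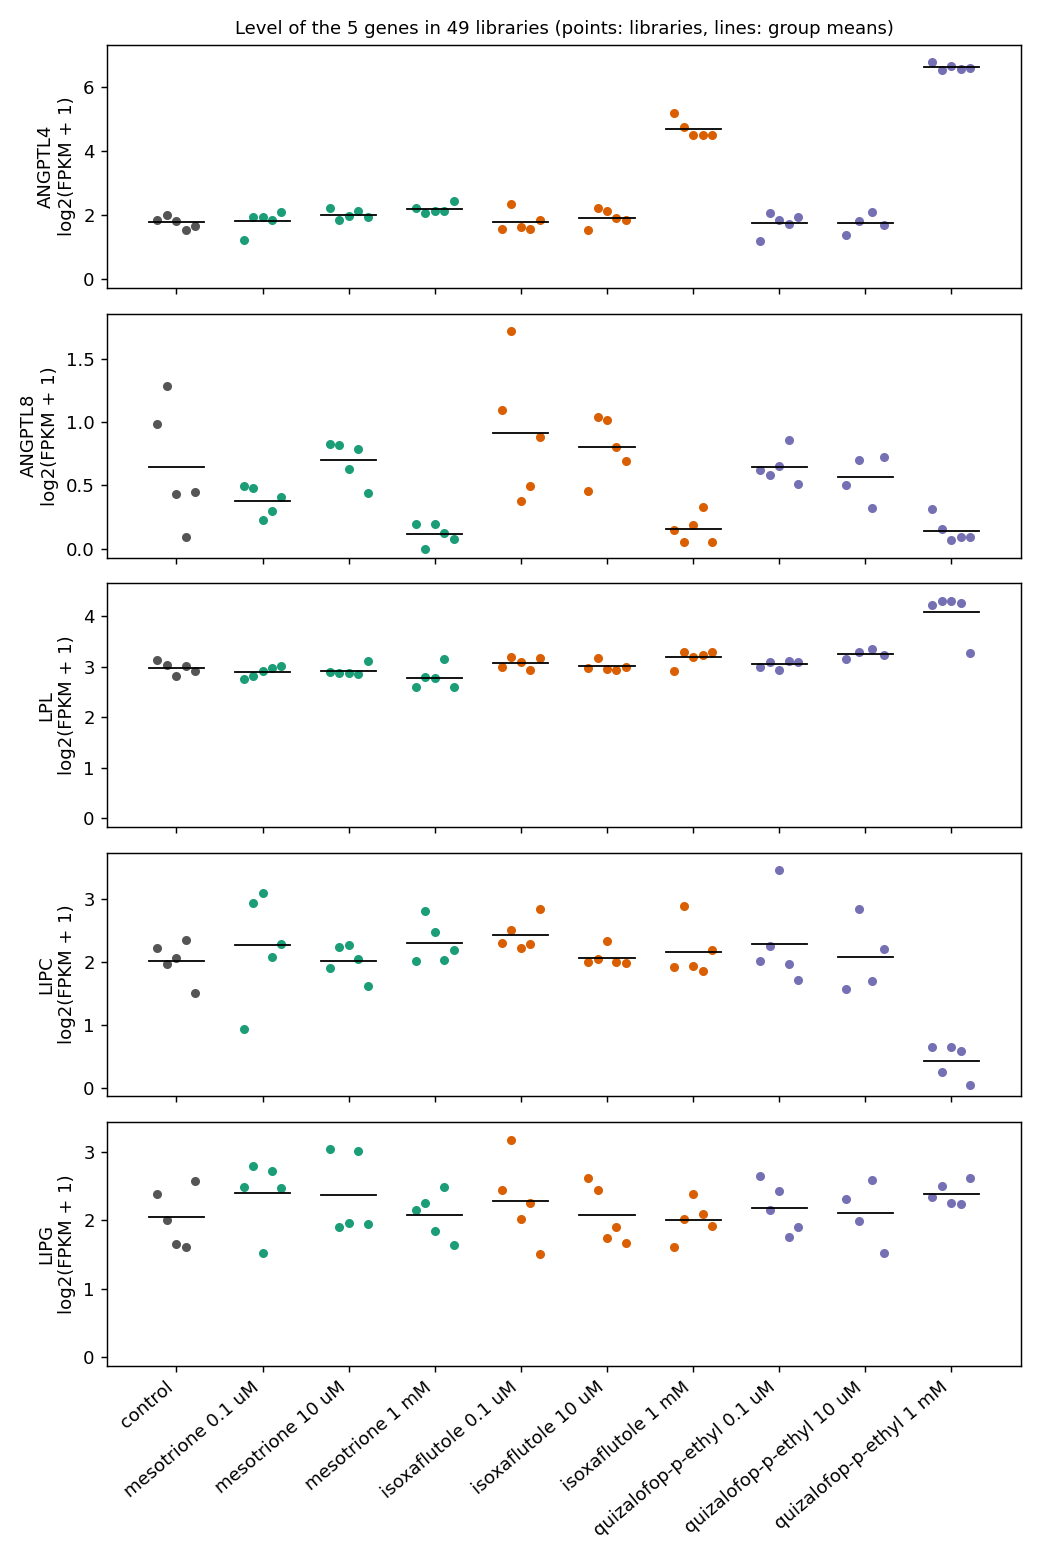
Level of each gene on the log2(FPKM + 1) axis in the 49 libraries, with points for libraries and lines for group means, ordered by compound and concentration; the vertical scales differ between panels. ANGPTL4 is far above control with isoxaflutole and quizalofop-p-ethyl at 1 mM, LPL is high and LIPC low with quizalofop-p-ethyl at 1 mM, and 1 LPL library of that group lies apart at 8.63 FPKM.

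The promoter of ANGPTL4 and the stretch before the annotated start of LIPC are shown because these genes had the largest rise and the largest fall among the 5. Both are from RefSeq (GRCh38.p14, plus strand), 5′ to 3′, and end at the base before the first exon of the main annotated transcript. The ANGPTL4 stretch is chr19:8363905-8364150 and the LIPC stretch chr15:58431741-58431797. Capitals mark the TATA box TATAAA and a CACGT in ANGPTL4, and a TGACCT in LIPC.
ANGPTL4: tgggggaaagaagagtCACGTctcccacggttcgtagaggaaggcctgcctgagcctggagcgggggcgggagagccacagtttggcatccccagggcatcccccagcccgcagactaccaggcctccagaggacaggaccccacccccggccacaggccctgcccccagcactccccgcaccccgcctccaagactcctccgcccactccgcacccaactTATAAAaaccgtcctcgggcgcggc
LIPC: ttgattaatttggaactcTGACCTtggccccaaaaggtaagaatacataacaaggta

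The TATAAA of ANGPTL4 begins 29 bases before its RefSeq start site, and 10.7% of 35116 RefSeq promoters of 250 bases hold that motif on either strand. CACGT is ACGTG read on the opposite strand, letters shared by hypoxia response elements and E-boxes, and 18.5% of promoters hold it. TGACCT is the nuclear receptor core motif AGGTCA read on the opposite strand, found in 12.1% of promoters and absent from the 250-base windows of ANGPTL4, ANGPTL8 and LIPG. The ANGPTL8 window holds TGATGCAA, a composite motif of ATF4 and C/EBP factors that 0.772% of promoters hold. GTTAAT, letters of a liver regulatory motif present in 6.23% of promoters, begins at 58431925 in the LIPC window, after the printed stretch. The RefSeq start site of LIPC, 58431991, lies downstream of the start of its main annotated transcript. GTTAAT thus lies between these starts, and TGACCT begins at position -232 from the RefSeq start site. These motifs do not overlap, and a match or an absence is a description of the letters in these windows only. Sites elsewhere in or near the genes were not searched.

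ANGPTL4 (chromosome 19, 8363289 to 8374373, plus strand, GRCh38) was low in control and rose with 2 of the 3 compounds at 1 mM. The 5 control libraries had 2.59, 3.05, 2.54, 1.88 and 2.17 FPKM, a mean of 2.45 ± 0.442 (SD, n = 5). With isoxaflutole at 1 mM they had 35.2, 25.7, 21.7, 21.6 and 21.4 FPKM, a mean of 25.1 ± 5.93. Every isoxaflutole library lay above every control library, as for 2.46% of all genes, and replicate 1 was the highest of its group. This is 10.3 times the control mean, with a log2 fold change of 2.91 (SE 0.16, 95% interval 2.58 to 3.24, adjusted p = 7.47e-17 by limma).

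Quizalofop-p-ethyl at 1 mM brought ANGPTL4 to 108, 91.4, 100, 93.0 and 95 FPKM, a mean of 97.6 ± 6.75. These 5 libraries lay close together and far above all other groups. The mean was 39.9 times that of control, with a log2 fold change of 4.85 (SE 0.16, 95% interval 4.51 to 5.18, adjusted p = 5.15e-26 by limma). In control 46% of tested genes had a lower mean level than ANGPTL4.

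With mesotrione at 1 mM ANGPTL4 stood at 3.65, 3.16, 3.34, 3.35 and 4.46 FPKM, a mean of 3.59 ± 0.516. All 5 values lay above the highest control value of 3.05, a separation that 1.06% of all genes showed in that comparison, but the difference did not pass (log2 difference 0.42, 95% interval 0.09 to 0.75, adjusted p = 0.334 by limma). At the lower concentrations the group means of ANGPTL4 ran from 2.42 FPKM for quizalofop-p-ethyl at 10 uM to 3.07 FPKM for mesotrione at 10 uM, and all 6 groups overlapped control.

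Set against each other at 1 mM, the compounds differed in ANGPTL4 in all 3 pairs. Isoxaflutole exceeded mesotrione by a log2 difference of 2.49 (SE 0.16, adjusted p = 3.93e-14 by limma), in a comparison that called 0.256% of genes and no other member. Quizalofop-p-ethyl exceeded mesotrione by 4.43 (adjusted p = 1.23e-24 by limma, 30.2% of genes called) and isoxaflutole by 1.94 (SE 0.16, adjusted p = 4.29e-13 by limma, 29.7% called), and in both of those comparisons 3 of the 5 members passed. Over the 6 comparisons between compounds at 0.1 uM and 10 uM the ANGPTL4 differences lay between -0.27 and -0.01, with 95% intervals that reached from -0.62 to 0.32. Those comparisons called 0.0% of genes, or 0.0124% and 0.00413% for quizalofop-p-ethyl at 10 uM against mesotrione and isoxaflutole. None of the 9 comparisons between compounds moved LIPG or ANGPTL8 past the threshold.

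The rise of ANGPTL4 was confined to the step from 10 uM to 1 mM among the steps tested. From 10 uM to 1 mM it grew by 2.75 with isoxaflutole (adjusted p = 5.27e-16 by limma, 2.84% of genes called) and by 4.87 with quizalofop-p-ethyl (adjusted p = 4.80e-25 by limma, 31.2% called). The same step with mesotrione gave 0.17 (adjusted p = 0.802 by limma, 0.97% called). From 0.1 uM to 10 uM the 3 compounds gave ANGPTL4 differences of -0.01 to 0.21, where 0.0% of genes were called, or 0.00413% with quizalofop-p-ethyl.

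Among the 11 annotated ANGPTL4 transcripts, ENST00000301455, a coding transcript of 7 exons and 1879 bases, carried most of the signal. It made up 58.7% of the gene's FPKM in control, 85.1% with isoxaflutole at 1 mM and 93.0% with quizalofop-p-ethyl at 1 mM, with means of 1.43, 21.4 and 90.8 FPKM. Tested by itself among 54806 transcripts it rose by 3.26 and 5.32 on the log2 scale (adjusted p = 3.16e-13 and 3.30e-22 by limma). A coding transcript with 6 exons, ENST00000393962, rose by 1.29 and 2.28 (adjusted p = 0.000913 and 8.28e-11 by limma), to means of 2.01 and 4.96 FPKM. How StringTie divides shared fragments between such transcripts is an estimate.

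**Figure D2:**
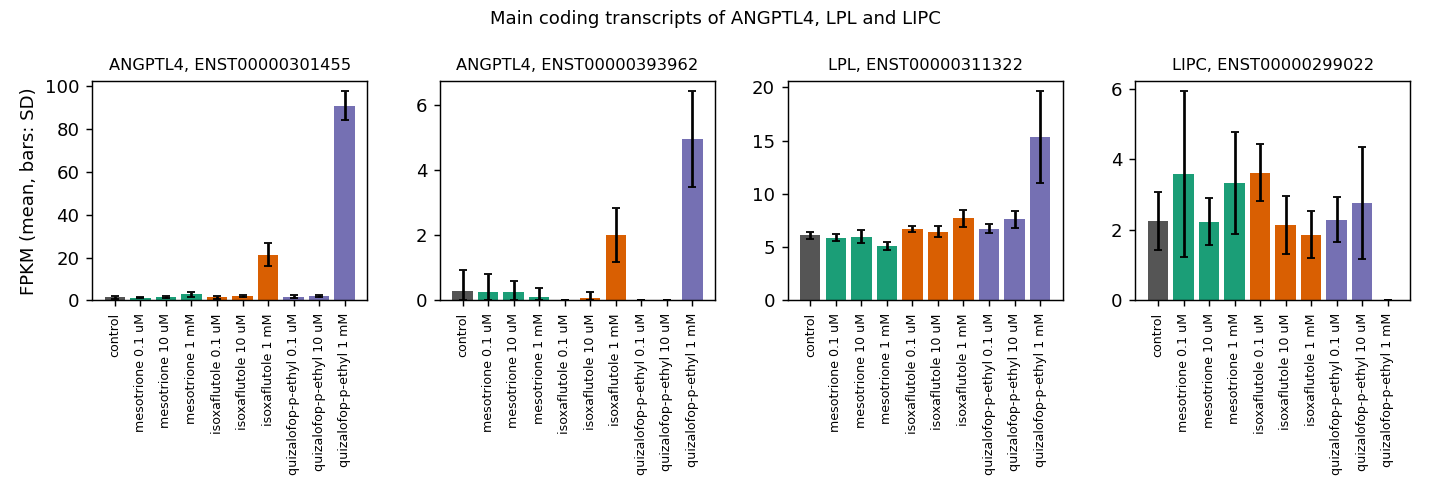
Mean FPKM with SD of the main coding transcripts of ANGPTL4, LPL and LIPC in each group, on linear axes that start at 0 and differ in scale between panels. The long ANGPTL4 transcript reaches 21.4 FPKM with isoxaflutole and 90.8 FPKM with quizalofop-p-ethyl at 1 mM, and the LIPC transcript is listed at 0 with quizalofop-p-ethyl at 1 mM.

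The 5 genes whose group means followed ANGPTL4 most closely over the 10 groups were CPT1A, HADHA, PSMF1, ASS1 and ITGB5 (Pearson r of 0.996, 0.992, 0.988, 0.984 and 0.983 among 11858 genes with a mean of at least 1 FPKM). CPT1A carries long-chain fatty acids into mitochondrial oxidation, and HADHA is a subunit of the trifunctional protein of the same pathway. Their steps were smaller: CPT1A had means of 27.8 FPKM in control, 28.4 with mesotrione, 42.9 with isoxaflutole and 56.9 with quizalofop-p-ethyl at 1 mM. HADHA had 76.3, 80.9, 104 and 126 FPKM. Over the 49 libraries, r with ANGPTL4 was 0.914 for CPT1A and 0.942 for HADHA, as a description, since the groups at 1 mM set most of it.

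ANGPTL8 (chromosome 19, 11237450 to 11241943, plus strand) was the lowest of the 5 genes, with control libraries at 0.982, 1.43, 0.346, 0.0684 and 0.365 FPKM. Its control mean was 0.637 ± 0.553, and only 12.4% of tested genes had a lower one. At 1 mM the means were 0.0874 with mesotrione, 0.117 with isoxaflutole and 0.107 with quizalofop-p-ethyl, and each of these groups overlapped control, whose replicate 4 was as low. One fragment on the longest ANGPTL8 transcript is worth about 0.0566 FPKM at the median depth, so these levels rest on very few fragments.

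Of the differences of ANGPTL8 from control only that with quizalofop-p-ethyl at 1 mM passed, at -0.50 (SE 0.17, adjusted p = 0.0194 by limma), and it did not pass without control replicate 1 (adjusted p = 0.0727). Differences of like size with mesotrione, -0.53, and isoxaflutole, -0.49, did not pass (adjusted p = 0.167 and 0.143 by limma). With unnamed transcripts added, ANGPTL8 passed with mesotrione at 1 mM, at -0.69 (adjusted p = 0.0483 by limma, 1.86% of genes called). Between 10 uM and 1 mM isoxaflutole, 5 libraries at 0.374 to 1.06 FPKM faced 5 at 0.0365 to 0.256, with no overlap, as for 2.32% of all genes, and a difference of -0.65 (adjusted p = 0.0260 by limma). ANGPTL4 and ANGPTL8 were the 2 members called in that step, which called 2.84% of all genes. The call of ANGPTL8 did not pass with all 50 libraries (adjusted p = 0.146), with no filter (0.0511), with unnamed transcripts added (0.151) or without any 1 of 3 isoxaflutole libraries at 1 mM, replicates 1, 2 and 5. ANGPTL8 entered the test on exactly 5 libraries at 1 FPKM or more, 1 of control, 2 of isoxaflutole at 0.1 uM and 2 at 10 uM. It lies inside DOCK6 on the opposite strand, and the sources used here do not say whether fragments were counted by strand.

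LPL (chromosome 8, 19901717 to 19967258, plus strand) was the most abundant of the 5 genes in control, where 71.2% of tested genes had a lower mean. Control libraries held 7.83, 7.15, 6.01, 7.06 and 6.54 FPKM, a mean of 6.92 ± 0.684. With quizalofop-p-ethyl at 1 mM the values were 17.8, 18.7, 18.8, 18.3 and 8.63 FPKM, a mean of 16.4 ± 4.37. Every one of them lay above control, and replicate 5 sat well below its 4 companions.

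The mean of LPL was 2.37 times that of control, with a log2 fold change of 1.09 (SE 0.12, 95% interval 0.85 to 1.34, adjusted p = 6.50e-10 by limma), and 1.29 when replicate 5 of quizalofop-p-ethyl was left out. With LPL and ANGPTL4, 2 of the 5 members were higher than control in every quizalofop-p-ethyl library, as were 9.1% of all genes. Isoxaflutole at 1 mM gave LPL values of 6.59, 8.80, 8.18, 8.47 and 8.86 FPKM, 4 of them above the control range, but the difference of 0.21 did not pass (95% interval -0.03 to 0.46, adjusted p = 0.499 by limma). Mesotrione at 1 mM gave 5.04, 5.91, 5.88, 7.88 and 5.08 FPKM and a difference of -0.20 (adjusted p = 0.669 by limma).

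Quizalofop-p-ethyl at 10 uM was the only lower concentration at which LPL did not overlap control, with 7.91, 8.86, 9.15 and 8.42 FPKM in its 4 libraries, as for 1.52% of all genes. Its left-out replicate 5 had 5.05 FPKM, below the lowest control value of 6.01, so with it the groups overlapped. The difference of 0.28 without it did not pass (95% interval 0.02 to 0.54, adjusted p = 1.0 by limma). Directly compared at 1 mM, quizalofop-p-ethyl exceeded mesotrione in LPL by 1.29 (adjusted p = 9.19e-12 by limma) and isoxaflutole by 0.88 (adjusted p = 1.15e-07 by limma). Isoxaflutole and mesotrione differed by 0.41 (95% interval 0.16 to 0.65), which did not pass (adjusted p = 0.266 by limma).

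Of 7 LPL transcripts, the coding ENST00000311322 of 10 exons carried 88.4% of the FPKM in control and 93.2% with quizalofop-p-ethyl at 1 mM. Its level went from 6.12 ± 0.333 to 15.3 ± 4.30 FPKM (log2 fold change 1.14, adjusted p = 1.51e-09 by limma). The genes most like LPL over the 10 group means were NIPSNAP2, SQLE, NOMO1, ZDHHC5 and PPME1, with r from 0.974 to 0.985. Over the 49 libraries their r with LPL was 0.556 to 0.818. SQLE, an enzyme of cholesterol synthesis, went from 22.2 FPKM in control to 34.3 with quizalofop-p-ethyl at 1 mM.

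**Figure D3:**
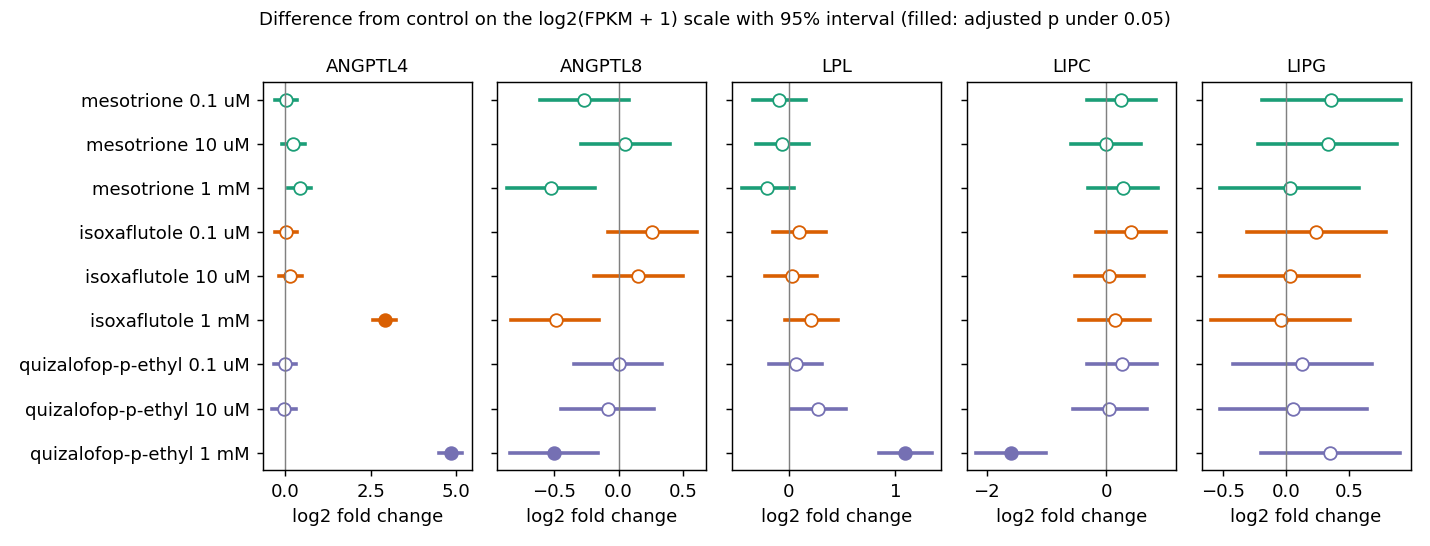
Log2 difference of each gene from control for the 9 exposed groups, with the 95% interval as a line and a filled point where the adjusted p is under 0.05; the horizontal scales differ between panels. Of the 45 points 5 are filled, all at 1 mM: ANGPTL4 with isoxaflutole, and ANGPTL4, ANGPTL8, LPL and LIPC with quizalofop-p-ethyl.

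LPL is a gene of adipocytes and macrophages more than of adult hepatocytes, so markers of other cell types are given beside it. The summed FPKM of 7 adipocyte markers ran from 4.28 to 7.25 in control and from 8.87 to 14.4 with isoxaflutole at 1 mM. With quizalofop-p-ethyl at 1 mM it ran from 12.9 to 52.3, and ADIPOQ was listed at 0 in all 5 libraries. ADIPOQ was also at 0 in all libraries of mesotrione at 0.1 uM and at 1 mM. Of the 2 adipocyte markers that could be tested, FABP4, a fatty acid carrier, rose with isoxaflutole and quizalofop-p-ethyl at 1 mM, and the other passed with neither. FABP4 is also in the list of PPAR targets, where its values are given below. Replicate 5 of quizalofop-p-ethyl had the lowest adipocyte sum of its group, 12.9, and also the lowest LPL value. The same library was lowest in the hepatocyte, biliary, mesenchymal and leukocyte sums too, at 264, 85.6, 48.8 and 3.27 FPKM, but not in the endothelial sum. Of 4 tested leukocyte markers 2 fell with quizalofop-p-ethyl and none rose. The leukocyte sum ran from 3.27 to 16.4 FPKM against 9.95 to 37.6 in control. PTPRC was listed at 0, as it was with mesotrione at 10 uM and 1 mM. The part of these markers in the LPL result was not tested.

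LIPC (chromosome 15, 58410569 to 58569843, plus strand) was nearly lost with quizalofop-p-ethyl at 1 mM. The named transcripts summed to 3.68, 2.89, 3.16, 4.07 and 1.82 FPKM in control, a mean of 3.12 ± 0.861. With quizalofop-p-ethyl at 1 mM they summed to 0.561, 0.184, 0.558, 0.494 and 0.0323 FPKM, all below the lowest control library. A separation of that kind was seen for 14.8% of all genes. The mean was 0.117 times that of control, with a log2 fold change of -1.59 (SE 0.29, 95% interval -2.17 to -1.0, adjusted p = 1.91e-05 by limma).

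Against mesotrione and isoxaflutole at 1 mM, LIPC was lower with quizalofop-p-ethyl by -1.87 and -1.72 (adjusted p = 1.11e-06 and 5.35e-06 by limma), and from 10 uM to 1 mM it fell by 1.64 (adjusted p = 3.00e-05 by limma). ANGPTL4, LPL and LIPC were the 3 members called in each of those comparisons, which called 30.2%, 29.7% and 31.2% of all genes. The main annotated transcript, ENST00000299022 with 9 exons, was listed at 0 in all 5 quizalofop-p-ethyl libraries against 2.26 ± 0.820 FPKM in control (adjusted p = 2.75e-05 by limma).

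Genes most like LIPC over the group means included MCL1, a survival protein of the BCL2 family, and PRDX3, a mitochondrial peroxidase, with r of 0.988 and 0.987. The other 3 were PTMA, PPT1 and IL1R2. Over the 49 libraries the r of these genes with LIPC was 0.563 to 0.741. With quizalofop-p-ethyl at 1 mM MCL1 stood at 40.1 FPKM against 58.0 in control, and IL1R2 at 0.313 against 1.77.

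LIPC is a gene of hepatocytes, and hepatocyte markers fell in the same libraries. All 21 tested hepatocyte markers of 22 fell with quizalofop-p-ethyl at 1 mM, with a median log2 fold change of -3.97. Their summed FPKM was 6095, 1657, 2824, 2415 and 264 in replicates 1 to 5, against 21738 to 26669 in control. Replicate 5, lowest in that sum and in the biliary, mesenchymal, leukocyte and adipocyte sums, also had the lowest LIPC value. ANGPTL4 there was 95 FPKM. None of the 22 markers was at 0 in all 5 libraries. In bulk samples, fewer cells of a type and less RNA per cell cannot be told apart.

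Markers of other cell types also fell with quizalofop-p-ethyl at 1 mM. Of 6 tested biliary markers 4 fell and none rose, with a sum of 85.6 to 186 FPKM against 636 to 728. CFTR was at 0 there, and EPCAM was at 0 there as it was with mesotrione at 10 uM. Of 7 tested mesenchymal markers 5 fell and 1 rose, with COL1A2 at 0 and a sum of 48.8 to 236 against 245 to 743, and the only endothelial marker tested of 9 fell, with a sum of 0.812 to 1.59 against 1.93 to 2.48. With isoxaflutole at 1 mM ANGPTL4 rose and the named LIPC transcripts did not pass. There 4 of 21 hepatocyte markers fell and 1 rose, with a list median of -0.57. The hepatocyte sum ran from 11794 to 21480 FPKM, in every library below the lowest control sum of 21738. With mesotrione at 1 mM 3 hepatocyte markers fell and 1 rose, and the sum, 14086 to 23211, overlapped control. The biliary sum lay below control with both, at 485 to 611 FPKM with isoxaflutole (1 of 6 fell, 1 rose) and 425 to 563 with mesotrione (2 of 6 fell, none rose). Of 7 mesenchymal markers 3 fell with isoxaflutole and 2 with mesotrione and none rose, and the sums, 174 to 695 and 185 to 681, overlapped control. Of 4 leukocyte markers 1 fell with mesotrione and none passed with isoxaflutole, at sums of 9.28 to 22.4 and 13.2 to 35.8, and the endothelial marker passed with neither, at sums of 1.16 to 1.85 and 1.39 to 2.35. No adipocyte marker passed with mesotrione, where the sum was 3.38 to 7.24. Some of these marker calls depended on the fit. That of PDGFRB, the mesenchymal riser with quizalofop-p-ethyl, was lost in 7 of 17 alternative fits. With isoxaflutole the calls of SOX9, the biliary riser, and LUM were lost in 12 and 9 of 17. With mesotrione those of KRT19 and LYZ were lost in 11 and 13 of 17. The part of these markers in the results for LIPC and ANGPTL4 was not tested.

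The named transcripts hold only part of the signal of LIPC, since the table also lists 4 assembled transcripts of the locus without a gene name. In control these added 3.68, 3.64, 2.77, 2.63 and 2.86 FPKM, or 49.9% of the locus. With isoxaflutole at 1 mM they added 7.77, 5.71, 6.34, 7.81 and 8.30 FPKM, or 66.6%. Every value lay above every control value, as for 2.46% of all tested genes and loci. The named transcripts alone gave 2.76, 6.36, 2.82, 2.61 and 3.55 FPKM there, a difference of 0.14 that did not pass (adjusted p = 0.917 by limma).

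Named and assembled transcripts together brought the LIPC locus from 6.24 ± 1.01 FPKM in control to 10.8 ± 1.19 with isoxaflutole at 1 mM, 1.73 times the control mean. In a fit with the unnamed transcripts of every locus added, over 19614 genes and loci, the log2 fold change was 0.71 (SE 0.13, 95% interval 0.44 to 0.98, adjusted p = 0.000373 by limma), where 4.48% of genes were called. In the same fit LIPC exceeded mesotrione at 1 mM by 0.69 (adjusted p = 0.00350 by limma, with 0.459% of genes called higher), while the named transcripts alone gave -0.15 (adjusted p = 0.973). With quizalofop-p-ethyl at 1 mM the locus fell by 2.33 (adjusted p = 5.62e-19 by limma, 43.4% of genes called). For quizalofop-p-ethyl both ways of summing gave a fall, and for isoxaflutole the call depended on the unnamed transcripts.

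The assembled transcript with the largest rise with isoxaflutole has 10 exons and begins at position 58431475, 323 bases before the annotated start of ENST00000299022 and 266 bases before the printed LIPC stretch. It was chosen for its values. It held 0, 2.44, 0, 0.0305 and 1.15 FPKM in control and 5.73, 1.44, 0, 6.24 and 7.94 with isoxaflutole at 1 mM, so the groups overlapped, and by itself it did not pass (log2 difference 1.42, adjusted p = 0.137 by limma). In isoxaflutole replicate 3, where it was listed at 0, another assembled transcript held 4.76 FPKM. In mesotrione at 0.1 uM the named sum ran from 0.902 to 7.53 FPKM and the locus sum from 5.28 to 7.74.

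**Figure D4:**
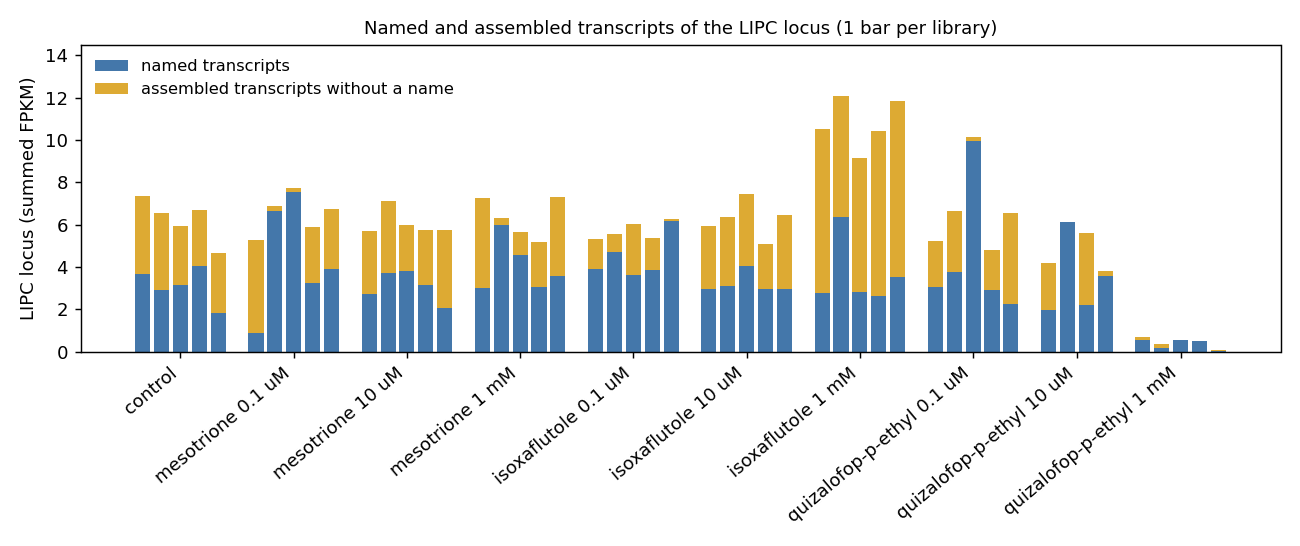
Summed FPKM of the LIPC locus in each library, on a linear axis from 0, split into named transcripts (lower, blue) and assembled transcripts without a gene name (upper, yellow). Bars with isoxaflutole at 1 mM reach 9.16 to 12.1 FPKM and those of control 4.68 to 7.37, while the blue part alone overlaps, and the bars of quizalofop-p-ethyl at 1 mM are near 0.

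LIPG (chromosome 18, 49560699 to 49599182, plus strand) passed in none of the 24 comparisons by limma, and 0 of them had an unadjusted p under 0.05. Control libraries had 4.21, 3.00, 2.14, 2.06 and 4.95 FPKM, a mean of 3.27 ± 1.28. With quizalofop-p-ethyl at 1 mM the values were 4.07, 4.66, 3.78, 3.72 and 5.14 FPKM, within or just above the control range, and the log2 difference was 0.35 (95% interval -0.20 to 0.90, adjusted p = 0.363 by limma). Isoxaflutole at 1 mM had a mean of 3.08 FPKM and mesotrione at 1 mM 3.30, with differences of -0.04 and 0.03. Their 95% intervals reached 0.51 and 0.58, so none of the 3 at 1 mM included 1.09, the log2 fold change of LPL with quizalofop-p-ethyl.

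The SD of LIPG in control was 1.28 FPKM, and that of LPL was 0.684. Mesotrione at 10 uM had 7.22, 2.72, 2.90, 7.10 and 2.87 FPKM, and isoxaflutole at 0.1 uM ranged from 1.84 to 8.07. The coding transcript ENST00000261292 carried 46.8% of its FPKM in control, and several short transcripts shared the rest. Genes most like LIPG over the group means, CHD2, MT-ND4L, SLC39A14 and GPATCH2L, reached r of 0.844 to 0.907, but over the 49 libraries r was between -0.023 and 0.326. For ANGPTL8 they were COL27A1, PHF11, ZNF326, PDZD2 and ABCA6, with r of 0.909 to 0.969 over the group means. Over the 49 libraries their r with ANGPTL8 was only 0.287 to 0.628.

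In order of the control means of named transcripts, LPL came first at 6.92 FPKM, then LIPG at 3.27, LIPC at 3.12 and ANGPTL4 at 2.45, with ANGPTL8 last at 0.637. The libraries of LIPG, LIPC and ANGPTL4 overlapped in control, and those of LPL lay above all others. With its assembled transcripts, LIPC had a control mean of 6.24 FPKM, second to LPL, and its libraries, at 4.68 to 7.37, overlapped those of LPL and LIPG. With isoxaflutole at 1 mM ANGPTL4 was the most abundant of the 5 at 25.1 FPKM, above LPL at 8.18, with no overlap. With quizalofop-p-ethyl at 1 mM ANGPTL4 stood at 97.6 FPKM, LPL at 16.4, LIPG at 4.27, the named transcripts of LIPC at 0.366 and ANGPTL8 at 0.107.

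Other genes of the system were read from 10 of 11 lists, by the calls of the same fit, without a test of the lists. Among 8 tested genes of LPL maturation, transport and activation, quizalofop-p-ethyl at 1 mM lowered 4 and raised 1, with a list median of -0.60 against -0.08 for all genes. Those that fell encode apolipoproteins that tune lipases or carry lipoproteins to receptors. APOC3, an inhibitor of LPL and of remnant uptake, fell from 393 ± 41.2 to 27.7 ± 27.7 FPKM (log2 fold change -4.42, adjusted p = 9.04e-13 by limma). APOC1 fell by 3.33, APOE by 1.68 and APOA5, an apolipoprotein that promotes LPL action, by 1.09. All 21 tested hepatocyte markers, APOC3 among them, fell in the same libraries, with a median of -3.97. The part of that fall in these apolipoprotein results was not tested.

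SEL1L, which takes part in LPL folding and export and was named after its value was seen as the only riser, went from 20.2 to 37.1 FPKM. LMF1, the maturation factor that LPL, LIPC and LIPG need, stood at 4.60 FPKM in control and 4.51 with quizalofop-p-ethyl (log2 difference -0.10, adjusted p = 0.808 by limma). GPIHBP1, the capillary anchor of LPL, and APOC2, its activator, were below the filter at 0.063 and 0.236 FPKM in control. No gene of this list passed with isoxaflutole or mesotrione at 1 mM.

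Of 5 proprotein convertases, which cut angiopoietin-like proteins and endothelial or lipoprotein lipase, 4 fell with quizalofop-p-ethyl and none with the others. Among them PCSK6 fell by 1.35, PCSK7 by 0.50 and FURIN by 0.40. Of 5 other lipases tested, PLA1A fell by 1.76, LIPH by 0.84 and PNPLA3, a lipid droplet protein, by 0.73, and none rose.

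Receptors and proteoglycans that take up lipoproteins moved mostly down with quizalofop-p-ethyl at 1 mM, 8 of 12 tested, with a median of -0.75. HSPG2 fell by 1.54, SDC2 by 1.24, SORL1 by 1.04 and SDC1, a heparan sulfate proteoglycan that takes up remnants in liver, by 1.00. None of the 12 passed with isoxaflutole or mesotrione.

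ANGPTL4 is a PPAR target, and of 27 tested others, 8 rose and 1 fell with isoxaflutole at 1 mM, with a median of 0.33 against -0.01 for all genes. This list was drawn up with results of these samples known and is no independent evidence. FABP4 rose from 0.353 ± 0.160 to 4.83 ± 1.55 FPKM (log2 fold change 2.08, adjusted p = 6.63e-08 by limma), PLIN2, a coat protein of lipid droplets, by 1.24, and PDK4, which turns down pyruvate dehydrogenase, by 1.10. CYP4A11, a fatty acid hydroxylase, fell by 1.39, a call that ended with the 2 groups alone and with 50 libraries. With all 50 libraries in the fit, 5 rose and none fell.

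Quizalofop-p-ethyl at 1 mM moved the same list both ways, with 12 that rose and 11 that fell. PLIN2 went from 33.7 ± 2.11 to 689 ± 192 FPKM (log2 fold change 4.28, adjusted p = 2.32e-30 by limma), FABP4 rose by 4.25 and PDK4 by 3.16. VNN1, a pantetheinase, fell by 3.55. With mesotrione at 1 mM only CYP4A11 passed, which fell by 1.36, while PLIN2 gave -0.32 and PDK4 0.12 (adjusted p = 0.182 and 0.935 by limma). That call of CYP4A11 ended in 6 of 17 alternatives: the 2 groups alone, 50 libraries, and without control replicate 1 or 4 or mesotrione replicate 1 or 2.

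Of 9 tested PPAR receptors and partners none passed with isoxaflutole or mesotrione at 1 mM. With quizalofop-p-ethyl PPARG rose from 9.03 to 25.9 FPKM (log2 fold change 1.43, adjusted p = 9.92e-16 by limma), PPARD from 6.06 to 12.1 (1.20, adjusted p = 0.0157 by limma), and RXRA fell by 0.50. The PPARD call ended without control replicate 4, with a pseudocount of 0.1, with the 2 groups alone and with 50 libraries. PPARA gave 0.43 with quizalofop-p-ethyl and 0.27 with isoxaflutole (adjusted p = 0.298 and 0.795 by limma).

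ANGPTL4 also answers to hypoxia and glucocorticoids in other settings, so lists of both were read. Of 14 hypoxia-responsive genes 6 rose and 3 fell with quizalofop-p-ethyl, with VEGFA up by 2.00, SLC2A1 by 1.90, NDRG1 by 1.64 on the log2 scale, while CA9 fell by 4.97. With isoxaflutole 1 rose, ADM by 0.63, and 2 fell, CA9 by 1.57 and EGLN3 by 0.49. The call of EGLN3 ended in 7 of 17 alternatives, 5 of them with 1 library left out (control replicates 1 and 2, isoxaflutole replicates 1, 3 and 4), and that of ADM in 3, 1 of them without isoxaflutole replicate 2. Of these genes mesotrione lowered CA9 alone, by 1.21. Of 8 glucocorticoid-responsive genes 3 rose and 2 fell with quizalofop-p-ethyl, among them TSC22D3, which rose by 1.44, and SGK1, which fell by 1.59. Only ERRFI1 rose with isoxaflutole, by 0.74, and with mesotrione, by 0.61, a call that ended in 3 of 17 alternatives, 1 of them without control replicate 1.

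Of the 10 lists, that of the integrated stress response had the largest median change with quizalofop-p-ethyl, and 13 of 14 tested genes rose and none fell, with a median of 2.67 on the log2 scale. TRIB3 rose by 4.22, CHAC1 by 3.52, GDF15 by 3.38 and ASNS, asparagine synthetase, by 3.30. With isoxaflutole ASNS rose by 0.75, CHAC1 by 0.66 and SESN2 by 0.34, and XBP1 fell by 0.69, and the calls of SESN2 and XBP1 each ended in 11 of 17 alternatives, among them median-ratio scaling, and that of CHAC1 in 5. Of these, single libraries left out made up 6 for SESN2 (control replicates 2 and 3, isoxaflutole replicates 1 to 4), 7 for XBP1 (control replicates 1, 3, 4 and 5, isoxaflutole replicates 1, 2 and 5) and 3 for CHAC1 (control replicate 3, isoxaflutole replicates 1 and 4). With mesotrione ASNS rose by 0.86 and TRIB3 by 0.47, and the call of TRIB3 ended in 8 of 17 alternatives, 5 of them with 1 library left out (control replicates 2, 3 and 5, mesotrione replicates 1 and 2).

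In the list of LXR, SREBP1 and carbohydrate-responsive genes 4 of 15 rose and 6 fell with quizalofop-p-ethyl. The liver regulators HNF4A and NR1H4 fell by 1.97 and 1.86, and SREBF1 by 1.16. With isoxaflutole LPCAT3 rose by 0.58 and no other gene passed, and with mesotrione none did. The lists share 9 genes between them or with the marker lists, among them FABP4, FGF21, APOC3 and HNF4A. At 0.1 uM and 10 uM no gene of any list passed with any compound by limma.

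**Figure D5:**
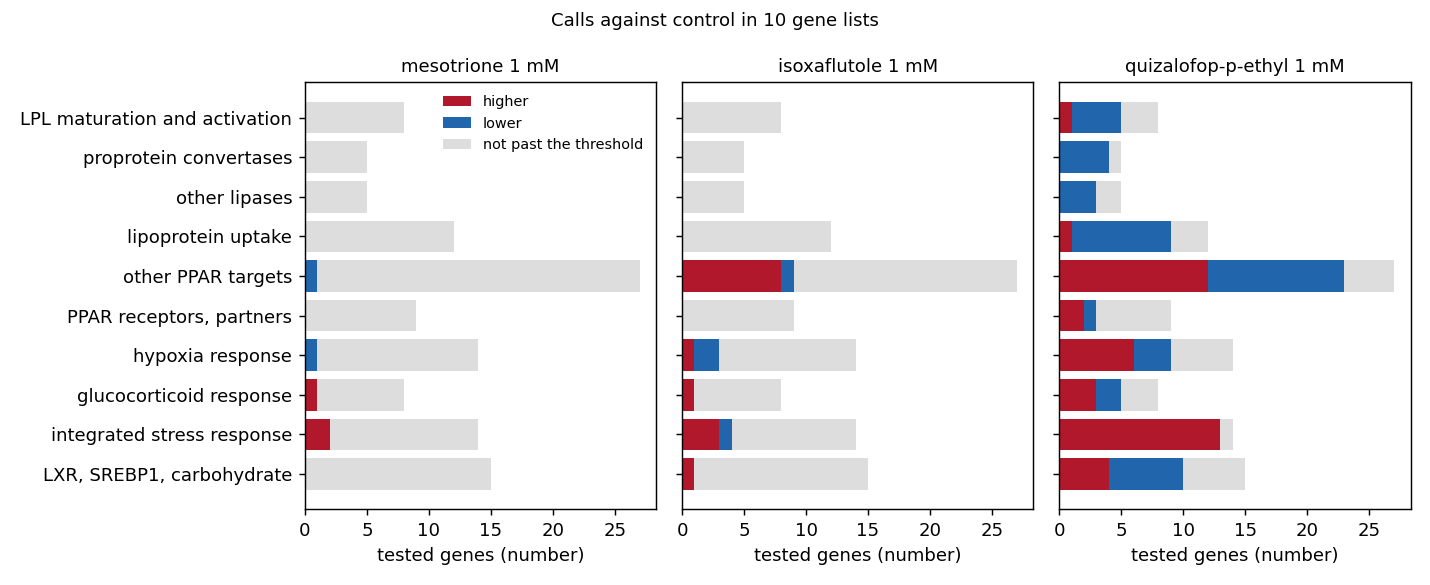
Number of tested genes of 10 lists that were higher (red), lower (blue) or not past the threshold (grey) against control at 1 mM, 1 panel per compound. The PPAR target list has 8 red and 1 blue with isoxaflutole and 12 red and 11 blue with quizalofop-p-ethyl, and the stress response list has 13 red of 14 with quizalofop-p-ethyl.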

How the data were processed

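Total RNA of HepaRG cells was sequenced in 50 libraries as stranded, ribosome-depleted paired reads, per the labels' protocols. HISAT, HISAT2, StringTie and GRCh38 stand in the submitters' processing notes, with no versions and no roles. The authors deposited FPKM values for 239290 transcripts, 40117 of them assembled without an annotated name; 24 deposited values lay slightly below 0, of which no source used here gives an account, and were set to 0, and 1 broken line was rejoined. FPKM is relative to each library's total, so RNA that takes many fragments lowers all other values. Depth was estimated from the FPKM of 1 fragment on 17521 single-exon transcripts.

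Transcript FPKM were summed by gene name. The 24222 genes and loci that reached 1 FPKM in 5 or more of 49 libraries entered limma (version 3.58.1, R 4.3.3) as log2(FPKM + 1), with 1 mean per group and trend and robust variances, and Benjamini-Hochberg adjustment within each of 24 comparisons: 9 with control, 9 between compounds at the same concentration and 6 between neighbouring concentrations. All comparisons with control share the same 5 control libraries. The fit was tested on simulated data. Summaries used pandas 2.3.3 and numpy 2.4.6 under Python 3.11.15, and figures matplotlib 3.10.9. All 36 named transcripts of the 5 genes match GENCODE release coordinates on GRCh38 within 1 base, and RefSeq promoters were found for 4 of the 5.

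The members, the 11 gene lists, the 6 marker lists (hepatocyte, biliary, mesenchymal, endothelial, leukocyte, adipocyte) and the tests were chosen with earlier results of these data known. Named are the members, up to 4 called genes per list and comparison with the largest change at 1 mM, a fixed set of lipase and PPAR genes, and the 5 genes most like each member by Pearson r over 10 group means; some genes the rule picks, and 1 of the 11 lists, are not reported here. The fit was repeated with the 2 compared groups alone, median-ratio scaling, a pseudocount of 0.1, all genes without a filter, the 5 runs of sample numbers as a block, 50 libraries, unnamed transcripts of the locus added, and each library left out in turn. No pair of libraries held identical values, and libraries of a group correlated at 0.929 to 0.960 on the log2 scale.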

Additional observations from a re-analysis of the deposited data

Results flagged for a closer look

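Among 50 groups of libraries, 10 for each of the 5 genes, 6 held a value far from the rest of its group, where chance gives about 1 in 20 groups. LPL was 8.63 FPKM in replicate 5 of quizalofop-p-ethyl at 1 mM, against 17.8 to 18.8 in the others. It was 7.62 in replicate 5 of mesotrione at 10 uM, against 6.26 to 6.42, and 8.07 in replicate 2 of isoxaflutole at 10 uM, against 6.65 to 6.98. The named transcripts of LIPC summed to 9.97 FPKM in replicate 3 of quizalofop-p-ethyl at 0.1 uM, against 2.27 to 3.76. They summed to 6.36 in replicate 2 of isoxaflutole at 1 mM, against 2.61 to 3.55, and to 4.03 in replicate 3 of isoxaflutole at 10 uM, against 2.94 to 3.11.

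The assembled transcripts of the LIPC locus, which the gene name does not select, had a mean of 7.19 FPKM with isoxaflutole at 1 mM, against 2.63 to 3.68 in the control libraries.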

How the results depend on the processing

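Of 120 comparisons of a member, 17 were called. Most of these share the same 5 libraries of quizalofop-p-ethyl at 1 mM, in comparisons that called 29.7% to 32.7% of all genes. The rest were with isoxaflutole at 1 mM, in comparisons that called 0.256% to 2.84%. Of the 17 calls 15, those of ANGPTL4, LPL and LIPC, kept direction and call in every alternative that could be run. Both calls of ANGPTL8 ended in some. The log2 fold change of ANGPTL4 against control stayed between 2.78 and 3.30 with isoxaflutole and between 4.78 and 5.28 with quizalofop-p-ethyl at 1 mM. With unnamed transcripts added, LIPC with isoxaflutole against mesotrione at 1 mM reversed to 0.69. For isoxaflutole at 1 mM against 10 uM, the same setting called LIPC in place of ANGPTL8, at 0.71 (adjusted p = 0.000394 by limma, 5.5% of all genes called). That setting also raised the number of called members from 0 to 1 for mesotrione at 1 mM against control (ANGPTL8, -0.69, adjusted p = 0.0483 by limma, 1.86% of all genes called), and from 1 to 2 for isoxaflutole at 1 mM against control (4.48% called) and against mesotrione (0.51%). A pseudocount of 0.1 called 1 member in mesotrione at 1 mM against 10 uM, where none was called before and where 0.797% of all genes were called with it. For isoxaflutole at 1 mM against 10 uM, 1 member in place of 2 was called with no filter (0.757% of all genes called), with median-ratio scaling (3.24%), with the 2 groups alone (1.9%) and with 50 libraries (0.313%). Leaving out single libraries gave 1 to 2 called members there (1.86% to 2.73% of all genes), and 1 to 2 for isoxaflutole at 1 mM against control (1.58% to 2.02%), the higher number without control replicate 4 (1.83%). Where fewer than 5 libraries reached 1 FPKM after a change of samples or scale, ANGPTL8 was not tested. Runs of sample numbers as a replicate block changed no call of a member; deviations from group means correlated with a median r of 0.0166 within a run and -0.0051 between runs, and the labels do not say what a run is. Over all genes, adding the left-out library lowered the calls at 1 mM against control from 213 to 26 for mesotrione, from 585 to 80 for isoxaflutole and from 7926 to 4645 for quizalofop-p-ethyl. In quizalofop-p-ethyl at 1 mM against 10 uM, 37.2% of calls were higher, or 49.8% with median-ratio scaling. Depth limits ANGPTL8, where 1 fragment is worth 0.118 FPKM in the shallowest of the 49 libraries.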
